A study of Mus musculus with 13 samples.

Results

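Skeletal muscle transcripts were unevenly spread over a time course of mouse aorta, and 3 of its 12 pools of tissue held the most of them. These 3 pools, named CT18, CT34 and CT58 by the hour of harvest, were chosen on measured values, the skeletal muscle genes Acta1, Ryr1 and Tnnt3, and account for 4 of the 13 arrays because CT18 was hybridised to 2. They are called muscle-rich below and are compared with the other 9 pools, CT22, CT26, CT30, CT38, CT42, CT46, CT50, CT54 and CT62. All mice were of the strain labelled c57/Bl6, were kept for 2 weeks in 12 h of light and 12 h of dark, and were then placed in constant darkness for 36 h. Aortae were taken every 4 h over 48 h and 6 were pooled for each time point, so each pool is a single sample of its time. No genotype or drug separated the groups, and the labels do not say whether the 2 CT18 arrays carried the same RNA. Because the choice used the contrast of 3 against 9 pools, every value of that contrast is given as a description with no test.

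Skeletal muscle fibres contract when the membrane is depolarised, the voltage sensor in the transverse tubule opens the ryanodine receptor, and calcium from the sarcoplasmic reticulum binds troponin on the thin filament. Fast and slow fibres carry different isoforms of myosin, troponin and the calcium pump, and fast fibres lean on phosphocreatine, glycogen and glycolysis while slow fibres lean on oxidative metabolism. The aortic wall is built of smooth muscle, endothelium and fibroblasts and holds no such fibres. In tissue measured in bulk, fewer cells of a type and less RNA per cell cannot be told apart.

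The choice of pools rested on a muscle score, the mean log2 intensity of Acta1 (the actin of skeletal thin filaments, probe set 100381_at), Ryr1 (the calcium release channel, 100003_at) and Tnnt3 (fast troponin T, 92885_at). The score was 11.46 in CT34, 11.15 in CT18 and 10.92 in CT58. Among the other pools it ran from 8.57 in CT54 to 10.20 in CT46, with a median of 9.53. The last pool inside the choice, CT58, lay 0.72 above the first pool outside it, CT46, which is 1.64-fold.

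Acta1 had an intensity of 8185 in CT18, 11017 in CT34 and 8728 in CT58, against 3098 to 6685 in the other pools with a median of 5428. Ryr1 had 461, 477 and 308 in the same 3 pools, against 42.4 to 145 with a median of 75.2. Tnnt3 had 3133, 4278 and 2680, against 416 to 1741 with a median of 979. None of the 3 genes overlapped between the sets, but their spread differed: Acta1 was 1.86-fold higher in the muscle-rich pools, Tnnt3 3.79-fold and Ryr1 5.39-fold. All folds here are 2 to the power of the difference between the mean log2 intensities of the sets. Acta1 was strongly expressed in every pool, while Ryr1 in CT54 was close to 36.7, the value at which low intensities were floored.

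**Figure D1:**
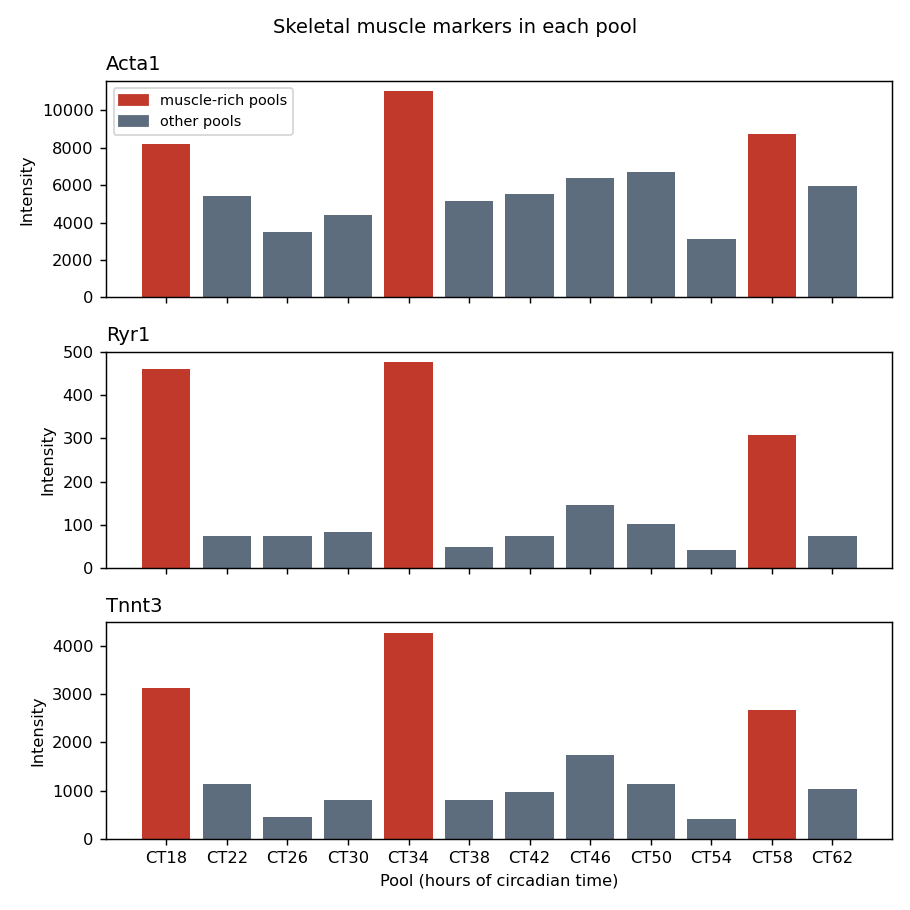
Bars give the deposited intensity (vertical axis, linear, starting at 0, values below the floor set to it) of Acta1, Ryr1 and Tnnt3 in each of the 12 pools in order of harvest, with the 2 CT18 arrays averaged on the log2 scale. The 3 muscle-rich pools (red) stand above all 9 others (grey) for each gene, and CT46 is the highest other pool for Ryr1 (145) and Tnnt3 (1741).

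To show the DNA ahead of the genes of the results, the stretch from 250 bases before to 50 bases after the annotated start is printed below for 4 muscle genes that were higher in all 3 pools, Acta1, Ckm, Mylpf and Pgam2, and for Pgam1, the widely expressed relative of Pgam2 that was not. The sequences are RefSeq's on GRCm38.p6, written 5′ to 3′ on the gene's strand. Capitals mark matches, on either strand, to the E-box CAGCTG, the MCAT box CATTCC, the TATA box with the letters TATAAA, the MEF2 consensus and the CArG box.
Acta1, chr8:123894726-123895025, minus strand: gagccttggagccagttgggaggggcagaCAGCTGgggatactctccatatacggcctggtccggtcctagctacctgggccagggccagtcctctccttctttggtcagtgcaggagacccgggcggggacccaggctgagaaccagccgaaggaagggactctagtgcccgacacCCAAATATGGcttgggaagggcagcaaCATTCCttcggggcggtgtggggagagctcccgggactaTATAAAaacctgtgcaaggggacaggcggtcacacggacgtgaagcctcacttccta
Ckm, chr7:19410844-19411143, plus strand: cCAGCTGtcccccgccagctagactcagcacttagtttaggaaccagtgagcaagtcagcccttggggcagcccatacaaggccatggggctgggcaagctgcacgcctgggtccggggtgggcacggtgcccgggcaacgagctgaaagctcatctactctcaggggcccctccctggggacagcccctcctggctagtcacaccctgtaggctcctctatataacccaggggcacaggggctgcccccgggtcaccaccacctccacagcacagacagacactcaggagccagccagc
Mylpf, chr7:127211358-127211657, plus strand: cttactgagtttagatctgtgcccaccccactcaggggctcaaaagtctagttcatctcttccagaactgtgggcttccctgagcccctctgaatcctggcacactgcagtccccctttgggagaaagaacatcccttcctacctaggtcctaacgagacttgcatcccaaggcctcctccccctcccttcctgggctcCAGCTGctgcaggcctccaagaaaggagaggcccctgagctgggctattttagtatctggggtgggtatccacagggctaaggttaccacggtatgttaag
Pgam2, chr11:5803747-5804046, minus strand: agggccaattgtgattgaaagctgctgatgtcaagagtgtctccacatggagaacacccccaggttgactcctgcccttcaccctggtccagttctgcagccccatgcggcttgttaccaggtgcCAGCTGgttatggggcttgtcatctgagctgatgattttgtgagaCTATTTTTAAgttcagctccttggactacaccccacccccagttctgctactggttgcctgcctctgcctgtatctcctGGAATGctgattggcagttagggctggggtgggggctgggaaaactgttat
Pgam1, chr19:41911621-41911920, plus strand: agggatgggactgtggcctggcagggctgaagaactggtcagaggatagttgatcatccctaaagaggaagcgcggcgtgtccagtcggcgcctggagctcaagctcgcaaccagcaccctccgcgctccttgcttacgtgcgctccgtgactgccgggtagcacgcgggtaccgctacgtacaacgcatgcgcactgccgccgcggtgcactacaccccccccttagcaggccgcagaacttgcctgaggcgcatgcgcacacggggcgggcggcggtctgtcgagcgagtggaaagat
The E-box CAGCTG is read by the myogenic factors of the MyoD family, MCAT boxes by TEAD factors, and the MEF2 and CArG motifs by MEF2 and serum response factor. The printed genes were picked as examples. Each of the 4 muscle promoters holds the E-box, which 15 of the 27 available windows of muscle list genes higher in all 3 pools held. The Pgam1 window holds none of these motifs. These are matches of letters only, and binding was not measured.

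Of the 5655 genes that passed the filter on low values, 52, or 0.92%, were higher in all 3 muscle-rich pools than in any of the other 9, and 17, or 0.301%, were lower in all 3. Because muscle genes chose the pools, nothing is read from the first count. Of the 52 genes, 32 belonged to 11 lists of skeletal muscle genes and 20 belonged to no list. Of the 25 that were also higher by at least 1 on the log2 scale, 21 were muscle list genes. The lists held 278 genes, of which 195 were on the array and 158 passed the filter on low values. Their mean in the other 9 pools alone would have passed 155. Among the 158, 32 were higher in all 3 pools, none was lower in all 3, and 126 overlapped. The 32 include the 3 score genes, whose place the choice had fixed, and 29 of 155 were higher without them. Of the 126, 91 differed by less than 0.3 on the log2 scale in either direction. The median difference was 0.16 over the muscle lists and -0.01 over all genes kept.

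The 3 muscle-rich pools differed among themselves. CT34 had the highest intensity for 29 of the 32 muscle list genes that did not overlap, CT58 for 2 and CT18 for 1. CT58 was the lowest of the 3 for 22 of them and CT18 for 10. Among the other pools, CT46 came next for 13 of the 32 genes and CT42 for 6. CT46 was the highest of the other 9 for 1086 of all 5655 genes kept, a smaller share than 13 of 32. Over all 158 muscle list genes kept it was the highest of the other 9 for 32, close to the share of all genes. CT46 also had the highest muscle score of the other 9 pools.

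**Figure D2:**
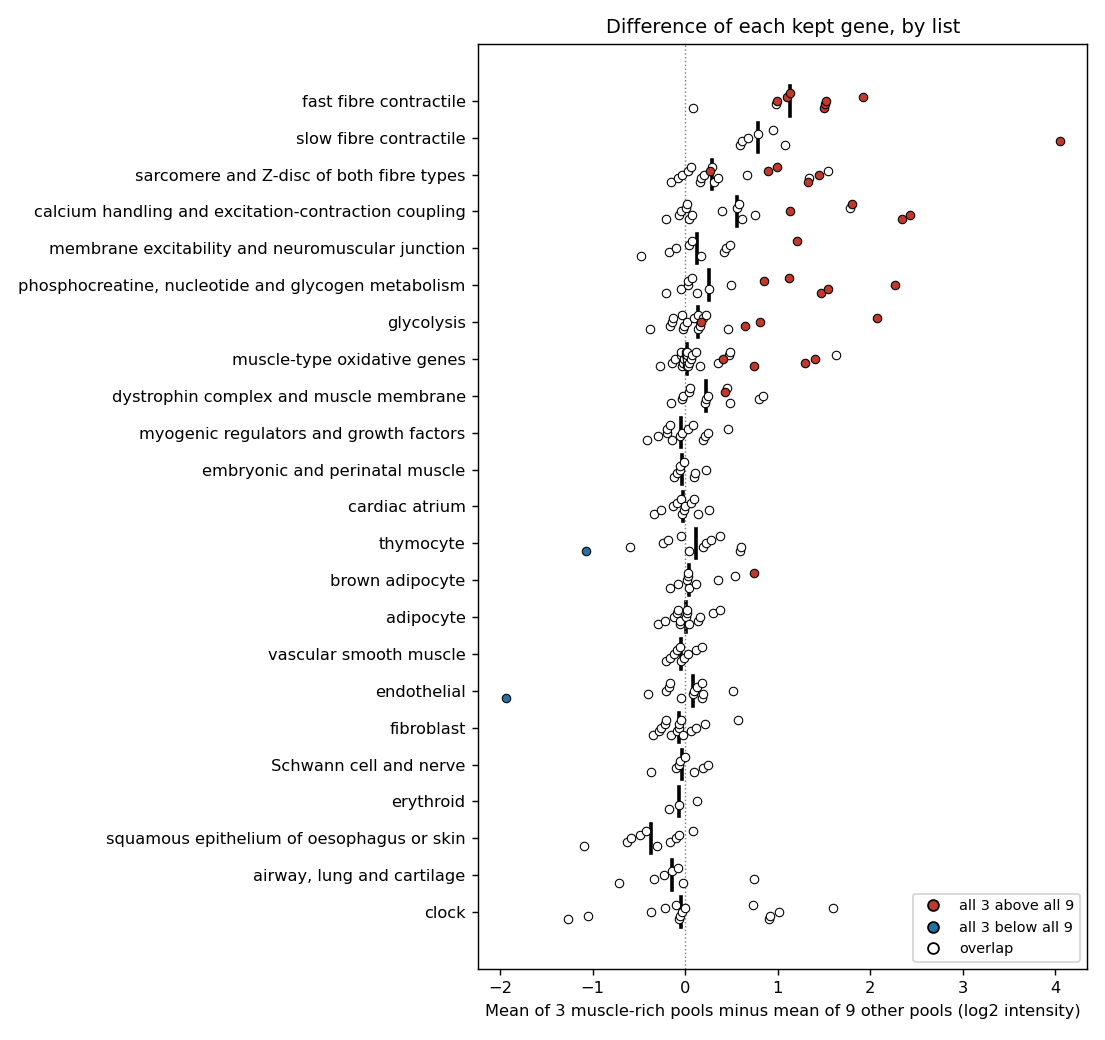
Each point is a gene that passed the filter, placed by the mean log2 intensity of the 3 muscle-rich pools minus that of the 9 others (horizontal axis), with black bars at list medians and lists down the vertical axis. Red points, all 3 above all 9, are 7 of 9 genes in the fast fibre list (median 1.13) and 1 of 7 in the slow list. They are 5 of 13 in the phosphocreatine list, 4 of 17 in calcium handling and 4 of 19 in glycolysis. Excitability and junction has 1 of 10 and the myogenic regulators 0 of 14, against 0.92% of all genes kept. The counts include the score genes.

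Of the fast fibre genes, 7 of 9 kept members were higher in all 3 pools, or 6 of 8 without the score gene Tnnt3, and the median difference was 1.13. Mylpf, the fast regulatory light chain, had 1238 in CT18, 2063 in CT34 and 1240 in CT58, against 263 to 822 in the other pools with a median of 551. Tnni2, the fast inhibitory troponin, had 694, 914 and 517, against 119 to 439 with a median of 258. On these probe sets both genes separated the pools, with differences of 1.53 and 1.51. A different probe set of Mylpf, 162101_f_at, differed by 1.59 but overlapped, with 249 in CT58 and 300 in CT46. Myh1, a fast myosin heavy chain, had 3746, 3689 and 1884, against 515 to 1497, so CT58 lay closer to CT46 than to the other muscle-rich pools. The remaining members higher in all 3 pools were the calcium-binding fast troponin Tnnc2 (1.13), the essential light chain Myl1 (1.10), Actn3 of the fast Z-disc (1.00) and Tnnt3 itself (1.92).

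Myoz1, a Z-disc partner of calcineurin in fast fibres, missed separation by a small margin. It had 520.9 in CT18 and 521.2 in CT50, the highest other pool, and a difference of 0.98. Myh4, the myosin of the fastest fibres, gave opposite answers on its probe sets. Its brightest, 161545_r_at, differed by 0.09, while 98488_at had 676, 669 and 483 in the muscle-rich pools against 36.7 to 316 in the others, a difference of 2.88. Of 38 muscle list genes with at least 2 kept probe sets, 4 had probe sets both with and without overlap, Fhl1, Myh4, Mylpf and Tnnt1. For Mylpf the probe sets split in the call but not in the size of the difference. Myh2, another fast myosin, was at the floor in all 12 pools.

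Of the slow fibre genes, 1 of 7 kept members was higher in all 3 pools, and the median difference was 0.78. That gene was Myl2, the slow and ventricular regulatory light chain, with 1102 in CT18, 1613 in CT34 and 1076 in CT58. It was at the floor in 5 of the other 9 pools and reached 646 in CT46, so its difference of 4.05 depends on the floor. The slow troponins Tnni1 and Tnnt1 differed by 1.08 and 0.95, and both overlapped because CT46, with 357 and 292, exceeded at least 1 of the muscle-rich pools. A different probe set of Tnnt1, 161361_s_at, did not overlap, with 699, 987 and 679 against 36.7 to 326. CT46, the other pool with the highest muscle score, was the highest of the other 9 on all of these probe sets.

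Tnnc1, Myh7 and Myl3, which the heart also uses, followed a different order of pools. Myl2, also a heart gene, did not, since CT46 was its highest other pool. Tnnc1, the slow and cardiac calcium-binding troponin, had 400, 479 and 439 in the muscle-rich pools, but 495 in CT38. Myh7, the slow myosin, had 596, 612 and 496, but 660 in CT42. Myl3, the slow and ventricular essential light chain, had 490, 1213 and 651, but 884 in CT62. The summed intensity of 12 atrial genes was 11420 to 12150 in the muscle-rich pools and 9147 to 19709 in the others, highest in CT38 (18296) and CT42 (19709). In CT62, the highest other pool of Myl3, the atrial sum was 11824, within the range of the muscle-rich pools. In CT38 the atrial hormone gene Nppa stood at 1435, against 251.4 to 562 in the muscle-rich pools. The part of atrial RNA in the slow genes was not tested. Tpm3, the slow tropomyosin, overlapped with a difference of 0.59, and CT46, with 1170, was its highest other pool.

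Of the genes of the sarcomere and Z-disc used by both fibre types, 5 of 19 were higher in all 3 pools, or 4 of 18 without the score gene Acta1, and the median difference was 0.29. They were Acta1 (0.89), Myom1 of the M-band (1.45), Nrap, which acts in myofibril assembly (1.33), Tcap, which caps titin at the Z-disc (0.99), and Fhl1 (0.26). Tpm2, the beta tropomyosin, showed how 1 pool can decide a separation, with 1056 in CT18, 1161 in CT34 and 400 in CT58 against 132 to 472. Ldb3, a Z-disc PDZ protein, had 254, 341 and 281 against 46.9 to 277 and also overlapped. Desmin (Des, -0.07) and the alpha tropomyosin Tpm1 (-0.15), which smooth muscle also expresses, did not separate the sets. Desmin had 475, 507 and 289 in the muscle-rich pools and 293 to 543 in the others, and Tpm1 had 903 to 973 against 887 to 1268.

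In calcium handling, Ryr1, Atp2a1, Cacna1s and Casq1 were higher in all 3 pools, 4 of the 17 kept members, and 13 overlapped, with a median difference of 0.56 over the list. Ryr1 is a score gene, and 3 of 16 were higher without it. Cacna1s passed the filter only through the muscle-rich pools. Atp2a1, the fast calcium pump SERCA1, had 2679 in CT18, 3435 in CT34 and 2168 in CT58, against 297 to 1323 in the others with a median of 469. This was 5.06-fold, and CT46, with 1323, stood well above the next of the other pools. Casq1, the calcium buffer of fast fibres, had 849, 1084 and 781 against 323 to 506, a difference of 1.13. Cacna1s, the pore of the voltage sensor, had 130, 186 and 105 and was at the floor in 7 of the other 9 pools, which reached 52.1 at most. Its difference of 1.80 became 2.61 and 1.13 with a lower and a higher floor.

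The 13 overlapping members held genes of heart, slow fibres or many tissues as well as genes of fast fibres. Casq2, the cardiac calsequestrin, had 319, 326 and 197 against 179 to 363, a difference of 0.01. Atp2a2, the calcium pump of slow fibres, heart and smooth muscle, had 328, 311 and 409 against 70.9 to 429, with CT38 highest. Ryr3 differed by 0.04 and the ubiquitous receptor partner Fkbp1a by -0.04. Pvalb, the parvalbumin of fast fibres, had 1265, 1375 and 945, but CT46 with 1024 lay above CT58, and CT42 was at the floor. Sypl2 (-0.21) and Tmem38b (-0.07), both proteins of the reticulum or its junctions, also overlapped, as did Hrc (0.59), Bin1 (0.56) and Cacng1 (0.61). Sln, Ryr2, Camk2a and Camk2b were on the array but did not pass the filter.

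**Figure D3:**
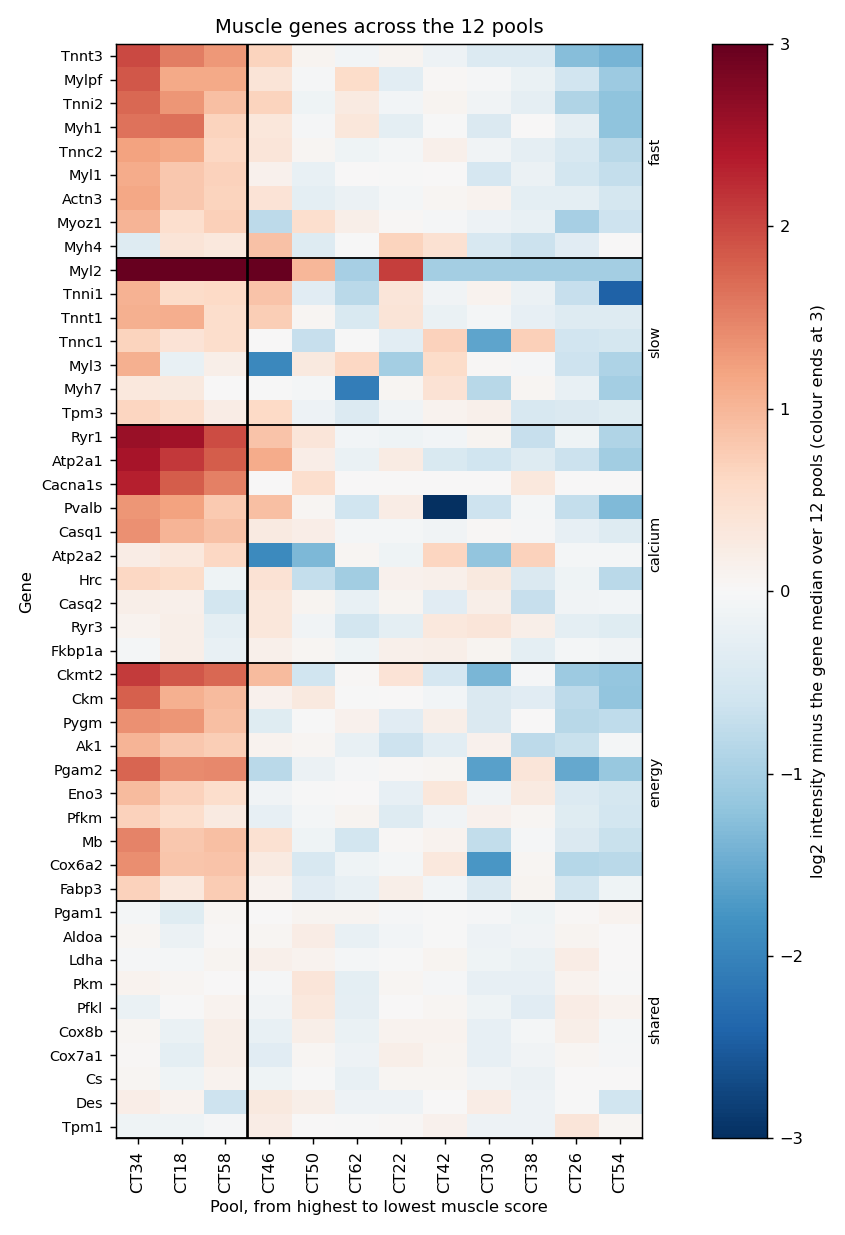
Rows are muscle genes in groups and columns are the 12 pools from the highest to the lowest muscle score. The colour is log2 intensity minus the gene's median over the pools, and it ends at 3. Ryr1, Atp2a1, the energy genes and the fast genes other than Myh4 are red in CT34, CT18 and CT58 left of the line. They are mostly paler from CT46 on. Myh4, shown by its brightest probe set, is below its median in CT34. The bottom group, enzymes and filaments that other tissues share, stays mostly near 0. The energy rows are all genes higher in all 3 pools and the bottom rows all overlapped. The contrast of these 2 groups therefore follows from the choice of rows.

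Among genes of phosphocreatine, nucleotide and glycogen use, 5 of 13 were higher in all 3 pools. Ckmt2, the sarcomeric mitochondrial creatine kinase, had 1716 in CT18, 2011 in CT34 and 1551 in CT58, against 181 to 901 with a median of 331, or 4.83-fold. Ckm, the cytosolic muscle creatine kinase, had 917, 1513 and 841 against 191 to 532, or 2.92-fold. Pygm, which breaks down muscle glycogen, differed by 1.47, the adenylate kinase Ak1 by 1.12 and the muscle adenylosuccinate synthase Adssl1 by 0.86. Genes of glycogen synthesis, among them Gbe1 (0.03) and Ugp2 (0.08), overlapped. So did Ppp1r3c (-0.05), a regulator of glycogen use, and Phka1 (0.04), a subunit of the kinase that activates glycogen breakdown.

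In glycolysis, 4 of 19 genes were higher in all 3 pools and the median difference was 0.14. Pgam2, the muscle phosphoglycerate mutase, had 302, 378 and 304 against 36.7 to 144 with a median of 99.8, or 4.21-fold. Pgam1, which most tissues use for the same step, had 1395, 1732 and 1879 against 1653 to 1943, and its difference was -0.13. The muscle enolase Eno3 (0.80) and the muscle phosphofructokinase Pfkm (0.65) were higher in all 3, but the liver and platelet forms Pfkl (-0.03) and Pfkp (-0.38) were not. Tpi1 was higher by 0.17, with 3168 to 3286 against 2660 to 3058. Aldoa (-0.01), Pgk1 (0.02), Pkm (0.10) and Ldha (-0.03), abundant in muscle but also in the rest of the wall, overlapped. Aldoa, for instance, had 8468 to 10011 in the muscle-rich pools and 8195 to 11159 in the others.

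A few relatives of muscle genes stood outside the lists. Eef1a2, the translation elongation factor of muscle and neurons, which was in no list, had 1572, 2172 and 1471 against 562 to 1313, while its general relative Eef1a1 differed by -0.02. Adss, the general counterpart of Adssl1, had 257, 243 and 257 against 265 to 331 and was among the 17 genes lower in all 3 pools, although it did not keep this call under every alternative scaling and floor. These pairs were singled out after their values had been seen.

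Genes of oxidative metabolism had a median difference of 0.02, with 4 of 29 higher in all 3 pools. The median was -0.03 without CT58 and 0.15 without CT18. Cox6a2, the muscle and heart subunit of cytochrome oxidase, had 2117, 3134 and 2151 against 357 to 1490, or 2.65-fold. Myoglobin (Mb), which stores oxygen in muscle, had 2159, 3440 and 2305 against 734 to 1680. Fabp3, a fatty acid carrier of muscle, heart and brown fat that was also in the brown fat list, had 1364, 1751 and 1841 against 738 to 1219, and Slc25a4, the muscle and heart exchanger of mitochondrial ADP and ATP, differed by 0.41. The oxidase subunits Cox7a1 (0.02) and Cox8b (0.04), the Krebs cycle enzymes Cs (0.07) and Sdha (0.02), and the fatty acid oxidation enzymes Acadm (0.01) and Acadl (-0.04) overlapped. Got2 differed by 1.63 on a probe set at the floor in 5 of the other pools, and overlapped.

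Brown fat, which surrounds the mouse aorta and expresses many of these oxidative genes, did not follow the muscle score. The summed intensity of 10 brown fat genes was 25878 in CT18, 30698 in CT34 and 37109 in CT58, against 26957 to 34196 in the others. CT58 was the highest of all 12 pools for 13 of the 29 oxidative genes, while CT34 was for 3 and CT18 for none. Over all 5655 genes kept, CT58 was the highest for 430, CT34 for 304 and CT18 for 440. The part of brown fat in these values was not tested.

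Several muscle programmes held few or no genes that separated the sets. Over all genes kept, 0.92% were higher and 0.301% lower in all 3 pools. A count of 0 in a list this short is therefore near the share of all genes, and nothing is read from it. Of 21 myogenic regulators and growth factors on the array, 14 passed the filter, and Myf5, Myf6 and Mstn were among those that did not. Among those kept, Myod1 differed by 0.03 and Mef2a by -0.04. None of the 14 separated the sets, and their median difference was -0.04. None of 8 embryonic and perinatal genes did, also with a median of -0.04, and Myh3, the embryonic myosin, was at the floor in all 12 pools. In the dystrophin complex, 1 of 13 genes was higher in all 3 pools, the transmembrane protein Sspn (0.43), whereas Dmd (-0.02) and its relative Utrn (-0.15) overlapped. Sgca, the muscle sarcoglycan, differed by 0.84 and Cav3, the muscle caveolin, by 0.80, both with overlap. In the list of membrane excitability and the neuromuscular junction, only Art1, an ADP-ribosyltransferase of the muscle surface, was higher in all 3, with 203.6 in CT58 and 203.2 in CT42. The acetylcholine receptor subunits Chrnd (-0.47) and Chrne (0.07) and the synapse organiser Rapsn (-0.17) overlapped, and Musk, Ache and Clcn1 were at the floor in all 12 pools.

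The order of the 9 other pools among themselves did not enter the choice, so it allowed a test of which genes rose with the muscle score outside the 3 pools. limma's moderated test of the slope of log2 intensity on the score, over 7450 probe sets and 9 pools, found 0 with an adjusted p under 0.05 (Benjamini-Hochberg). At an unadjusted p under 0.05, 359 probe sets had a positive and 237 a negative slope. By gene, 270 of 5652, or 4.78%, were positive and 189, or 3.34%, negative. Of the muscle list genes, 24 of 155, or 15.5%, were positive and 2 negative. The fast fibre list had 6 of 8 members positive at this level, the slow list 4 of 7, calcium handling 4 of 16 and the phosphocreatine list 3 of 13. Glycolysis had 0 of 19, the myogenic regulators 0 of 14 and the oxidative list 1 of 29.

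The lowest adjusted p by limma over these 9 pools was 0.111, shared by Tnnc2, Ckm, both probe sets of Atp2a1, Tnni2, Wdr75 and Bcl2l11. The slope, in log2 units of a gene per log2 unit of the score, was 0.69 ± 0.10 (SE) for Tnnc2, 0.92 ± 0.14 for Ckm, 1.19 ± 0.19 for the brightest probe set of Atp2a1 and 1.09 ± 0.18 for Tnni2. Myl2 had the steep but loose slope of 2.41 ± 0.74, and Casq2 had 0.26 ± 0.21. Wdr75, a ribosome assembly factor, and Bcl2l11, a regulator of cell death, had slopes of 1.63 ± 0.27 and 0.74 ± 0.12 among the 9 pools but differed by only 0.08 and 0.25 between the sets. Of the 20 probe sets with the lowest p, 10 were of muscle list genes. The slopes above are not adjusted for the hour or for other tissues. With cosine and sine of circadian time as covariates, the lowest adjusted p by limma was 0.543. With the thymocyte and atrial marker means as covariates it was 0.236 by limma. Leaving out CT54 and CT46, the pools farthest from the median score, left 104 positive and 93 negative slopes at an unadjusted p under 0.05 and a lowest adjusted p of 1 by limma, with a narrower range of the score. Leaving out 1 pool at a time, the slope ran from 0.61 to 0.72 for Tnnc2, 1.02 to 1.21 for Tnni2, 0.80 to 1.14 for Ckm and 0.91 to 1.35 for Atp2a1. With the score taken from Acta1 alone, Ckm alone passed, with a slope of 1.21 ± 0.15 and an adjusted p of 0.0434 by limma.

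The choice of pools is entangled with the hour. CT34 and CT58 both fall at hour 10 of the circadian day, and no other pool does, so hour and muscle content cannot be told apart there. CT18 and CT42, 24 h apart, are the only muscle-rich and other pool of the same hour. In this pair, compared after the data had been seen, with 1 pool on each side and no replicate check, 306 of 5655 genes, or 5.41%, were higher in CT18 by at least 1 on the log2 scale. Of the muscle list genes, 25 of 158, or 15.8%, were. The median difference of CT18 over CT42 was 0.97 for the fast list, 0.51 for calcium handling, 0.44 for the phosphocreatine list and 0.43 for the slow list. It was 0.05 for glycolysis, -0.17 for the oxidative list and 0.02 over all genes. The comparison shares both pools with the contrast of 3 against 9 and is no separate evidence.

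Within this pair, Ryr1 differed by 2.61, Atp2a1 by 2.58, Ckmt2 by 2.37, Tnnt3 by 1.68 and Ckm by 1.17. The differences of Pgam2 (1.37), Eno3 (0.34), Cox6a2 (0.51) and Tcap (0.43) were smaller than in the whole contrast, and those of Tnnc1 (-0.30) and Myl3 (-0.79) had the opposite sign. The atrial sum was 11609 in CT18 and 19709 in CT42, and the summed intensity of 12 thymocyte genes was 6247 in CT18 and 2030 in CT42. Dntt, the terminal transferase of thymocytes, differed by 4.62 in the pair but by 0.61 in the whole contrast.

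**Figure D4:**
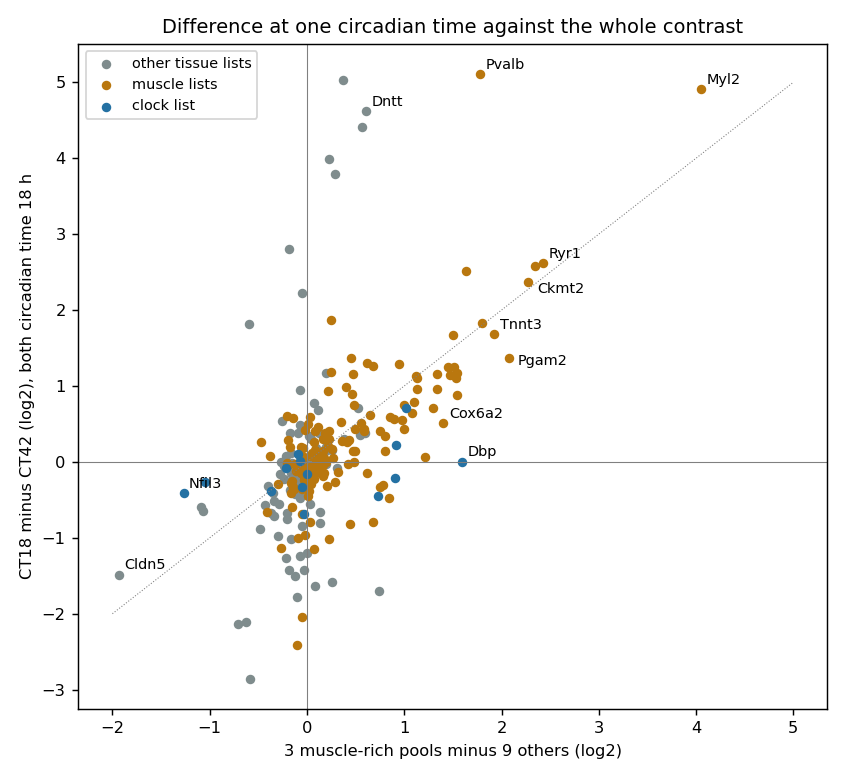
Each point is a gene of a list, placed by its log2 difference between the 3 muscle-rich and the 9 other pools (horizontal axis) and between CT18 and CT42, both at circadian hour 18 (vertical axis). CT18 and CT42 enter both axes, the dotted line marks equal values, and 0 is marked on each axis; Ryr1, Ckmt2 and Tnnt3 lie near the line, Dbp, at the floor in both CT18 and CT42, lies at 0 on the vertical axis, and Dntt lies far above the line.

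Genes in no list that were higher in all 3 pools numbered 20, and the largest differences are named here. Rtn2, a reticulon of the endoplasmic reticulum, had 142 in CT18, 175 in CT34 and 120 in CT58 and at most 64.3 in the others, where 4 pools were at the floor. Ptp4a3, a tyrosine phosphatase, had 216, 337 and 216 against 36.7 to 189. Pcbp4, an RNA-binding protein, had 82.4, 108 and 98.3, against 36.7 to 75.3 with 5 of the other pools at the floor. Its difference of 1.12 became 1.57 and 0.59 with a lower and a higher floor. Rtn2 and Pcbp4 passed the filter only through the muscle-rich pools. Pkia, the inhibitor of protein kinase A that is abundant in muscle, differed by 1.05. Then came Zfp568 (0.96), Eef1a2 (0.90), the actin-binding Twf2 (0.87), the mitochondrial transhydrogenase Nnt (0.71), the kinase Prkce (0.65) and Pde4dip (0.64). Within the 9 other pools none of these 10 genes had a slope past limma's adjusted threshold; the largest were 0.77 ± 0.28 for Pkia and 0.60 ± 0.20 for Eef1a2, each with a limma adjusted p of 0.613, and the smallest was -0.07 for Ptp4a3. Over 6 changes of floor, scaling and CT18 array, 11 of the 20 genes in no list kept their call, against 28 of the 32 muscle list genes. The 28 include the 3 score genes, and muscle genes chose the pools, so nothing is read from comparing these counts. The muscle list genes that did not keep the call were Tpi1, Fhl1, Art1 and Myom1.

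The 17 genes lower in all 3 pools held no muscle list gene, and 3 of them, Cldn5, Lox and Ubfd1, kept the call under all 6 changes. Cldn5, the tight junction protein of endothelium, had 63.5 in CT18, 36.7 in CT34 and 60.4 in CT58, against 102 to 552 in the others with a median of 178. Its difference of -1.94 was not shared by its list: the summed intensity of 13 endothelial genes was 3183 to 3486 in the muscle-rich pools and 2988 to 4532 in the others. Lox, which cross-links collagen and elastin, had 122, 88.7 and 102 against 130 to 324. Fam20c, a secretory pathway kinase, had 87.1, 93.7 and 89.4 against 200 to 326. Its difference of -1.64 was -1.22 or -2.05 with a single CT18 array in place of their mean. Chrnb2, a neuronal acetylcholine receptor subunit, was at the floor in all 3 pools and had 47.0 to 161 in the others. Ptcra, the pre-T cell receptor chain, had 78.5, 111 and 73.5 against 123 to 269. Its 2 CT18 arrays had 9.13 and 168 before flooring, and its call was lost with the second of them alone. The thymocyte sum was 3226 to 6247 in the muscle-rich pools and 1967 to 6924 in the others.

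Markers of smooth muscle and fibroblasts overlapped between the sets. The smooth muscle actin Acta2 had 3777 to 5202 in the muscle-rich pools and 4073 to 6848 in the others, and the smooth muscle myosin Myh11 had 1561 to 1939 against 1351 to 1957. The summed intensity of 10 smooth muscle genes was 14945 to 17826 against 14856 to 21319, and that of 15 fibroblast genes 26536 to 27214 against 26352 to 36211. Genes of airway and squamous epithelium varied several-fold but overlapped between the sets, with sums of 2042 to 7518 against 1417 to 10244 for airway and 3518 to 5608 against 956 to 11891 for squamous epithelium, where Krt5, Krt14 and Ivl were at the floor in all 12 pools. The ratio of 3′ to 5′ signal overlapped between the sets of arrays and leaned opposite ways for its control genes: for actin it was 1.64 to 1.83 on muscle-rich arrays and 1.77 to 2.21 on the others, and for Gapdh 1.17 to 1.31 and 1.05 to 1.26. Their part in the muscle differences was not tested.

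None of 14 clock genes separated the sets, a count near the share of all genes, of which 0.92% were higher and 0.301% lower in all 3 pools. Dbp, an output of the clock, differed by 1.59 and Nfil3, which opposes it, by -1.27. Leaving out 1 pool moved these to 0.99 without CT58 and 2.79 without CT18 for Dbp, and to -0.70 and -2.15 for Nfil3. Nfil3 had 273 in CT18 but 52.3 in CT34 and was at the floor in CT58. Dbp had 442 in CT34 and 445 in CT58 and was at the floor in CT18, so its level was not shared by the 3 muscle-rich pools. Dbp was at the floor in CT42 too, so this pair gives no difference for it.

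Promoters were compared for genes with a RefSeq entry, 27 of the 32 muscle list genes higher in all 3 pools and 94 of the 126 that overlapped, using the first listed window of each gene. The E-box CAGCTG was present in 15 of 27 windows, or 55.6%, in 23 of 94, or 24.5%, and in 16.1% of all 27025 windows. The MCAT box CATTCC was in 25.9%, 14.9% and 14.6%, TATAAA in 18.5%, 12.8% and 14.2%, the MEF2 consensus in 7.41%, 7.45% and 3.26%, and the CArG box in 11.1%, 7.45% and 1.57%. Of the genes in no list that were higher in all 3 pools, 10 had a window and 1 of these held the E-box. CAGCTG reads the same on both strands. The shares are a description of these windows and no test was made.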

How the data were processed

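Total RNA of 12 aorta pools was measured on 13 arrays of 12488 probe sets. The deposited values are intensities on a linear scale, in which 21.3% to 24.2% of values per array were at or below 0 and a mean trimmed by 2% was 200.2 on every array, as read from the values; neither labels nor headers name the software or scaling that the authors applied. A duplicate array was analysed here for CT18 only.

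After 66 control probe sets were left out, values were floored at 36.7 (20th percentile of positive values), converted to log2, and the CT18 arrays averaged (median absolute difference 0.19, against 0.29 between other pools). Of 12422 probe sets, 7453 with a mean at or above the 40th percentile (48.5) were kept. Of the 12422, the platform annotation gave 1 gene for 10833, several for 396 and none for 1193. The brightest probe set represented a gene (5655 genes). Slopes were fitted with limma 3.58.1 (lmFit, eBayes with trend) in R 4.3.3, checked on simulated data, without the 3 score genes. The number of pools limits the precision, and the spread between them may be technical.

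The pools and gene lists were chosen with earlier results of these data known. Named genes were the 3 score genes; per muscle list up to 6 with the largest difference among those higher in all 3 pools and the 5 with the smallest difference; 2 per other list; and 10 higher and 10 lower genes in no list. Other genes were named after their values were seen. Alternatives were 2 floors, 2 scalings, 2 filters, single CT18 arrays, other scores and covariates, and leaving out each pool.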

Additional observations from a re-analysis of the deposited data

Results flagged for a closer look

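Among the 9 other pools, 128 named genes were examined for a single pool far from the rest, measured by its gap to the nearest pool as a share of the range. In 7 of them a pool stood apart, and chance alone gives about 1 in 20. CT54, the pool with the lowest muscle score, was low for Myh1, with 514.7 against a next value of 882.6, for Des, with 292.9 against 400.1, and for Pkia, at the floor of 36.73 against 65.65. CT62 was at the floor of 36.73 for Chrnd, where the next pool had 74.0. CT30 was low for the airway gene Scgb1a1, with 553 against 2592, and high for Eda, with 236.9 against 136. CT42 was low for Twf2, with 106.6 against 144.3.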

How the results depend on the processing

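The 52 genes higher in all 3 pools became 42 to 61 and the 17 lower genes 12 to 21 over the changes of floor, scaling, filter and CT18 array; counted as probe sets, an alternative chosen after seeing the data, they were 63 and 24. Leaving out a pool can only add genes: the higher count ran from 55 to 162 and the lower from 18 to 116, both largest without CT18; without CT58 they were 115 and 44, without CT34 the lower count was 51, and without CT62 it was 27. The count of slopes past the threshold stayed 0 under every setting but the Acta1 score, where it was 1 (the slope of Ckm, 1.21), and it was 0 without each pool in turn. The median difference of calcium handling, 0.56, was 0.375 with the floor at the 30th percentile and 0.287 with no filter, and ran from 0.25 to 0.69 without single pools; that of excitability and junction ran from 0.0854 to 0.365; that of the oxidative list from -0.0276 (without CT58) to 0.147 (without CT18); that of the phosphocreatine list from 0.191 to 0.427 (without CT18); that of glycolysis from 0.0684 (without CT58) to 0.151; and glycolysis was 0.0547 between CT18 and CT42. The cause was not tested. None of the called results changed sign under the alternatives run. For most alternatives this was fixed in advance, since a called gene has every muscle-rich pool above, or every one below, all other pools. Its sign could therefore not reverse when a pool was left out or when CT18 was compared with CT42, and nothing is read from those alternatives. No paired analysis was possible because time points share fewer than 2 replicate numbers. With 1 pool per time, the signal near the floor and the number of pools limit all values of low genes.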
